A study of Mus musculus with 12 samples.

Results

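The genes described here are those of major histocompatibility complex (MHC) class II and class I. They comprise 10 of the 50684 Ensembl genes counted in the ears of 12 mice, and were picked by name through the gene symbols that accompany the deposited data. The class II genes were the chains H2-Aa, H2-Ab1 and H2-Eb1, the chaperones Cd74, H2-DMa and H2-DMb1, and the transactivator Ciita. The class I genes were the heavy chains H2-K1 and H2-D1 and the light chain B2m. All 10 genes passed the filter on low counts and were tested. Female C57BL/6 mice, 8 weeks old, received PBS, IL-17A, IL-36γ or IL-17A + IL-36γ into the skin of the ear pinna, with 1 µg of a cytokine and a volume of 5 µl. Mice of the combination received 1 µg of each cytokine, and PBS, the solvent of both, served as the control. Per the study's methods, treatment ran over 4 consecutive days. Ears were taken on day 4, and 3 of the 5 mice of each group were sequenced as total RNA. All mice were of 1 inbred strain, so that the results hold for the H2 haplotype of that strain. The RNA came from a part of the ear, which can hold epidermis, dermis, cartilage and infiltrating cells.

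MHC class II molecules display peptides from material taken up by a cell to CD4 T cells, and are found mainly on dendritic cells, Langerhans cells, B cells and macrophages. CIITA is the coactivator without which class II genes are largely silent, the invariant chain (Cd74) escorts new class II chains to the endosome, and H2-DM exchanges the remnant of the invariant chain for peptide there. MHC class I molecules, formed by a heavy chain and β2-microglobulin, display peptides made by the proteasome in nearly every nucleated cell to CD8 T cells, and interferon-γ is a known inducer of both classes. C57BL/6 mice lack a functional H2-Ea gene, and H2-Ea had 0 counts in all 12 libraries.

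Counts per library summed to between 25293468 and 34759293. Levels are given as CPM, the counts scaled by TMM to a common library size and written per 10⁶, and as RPKM, the CPM per kilobase of exon, where different genes are compared. Changes are log2 fold changes with their standard errors (SE). They come from edgeR's quasi-likelihood test, fitted once to the 12 libraries together, and p-values were adjusted by Benjamini-Hochberg over 19408 genes. A gene is said to rise or fall at an adjusted p-value below 0.05, and to pass the study's threshold where the absolute log2 fold change also exceeded 1. Keratinocyte genes, the check of the labelled tissue, summed to 11921 CPM or more in every library. PBS replicate 1 was the lowest PBS library for all 10 genes, so that values without it are given where they matter. Over all genes it also differed from PBS replicates 2 and 3 (chi-square of the counts per gene 58.4 and 45.2) more than these did from each other (6.56). The same held for IL-17A replicate 1 against IL-17A replicates 2 and 3 (37.4 and 48.7, against 8.46 between these). Scaling by library size only, in place of TMM, moved the log2 fold change of the median gene from 0.04 to -0.13 for IL-17A, from -0.02 to -0.16 for IL-36γ and from -0.03 to -0.17 for the combination, each against PBS. The median interaction of all genes moved from -0.07 to 0.11.

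The promoters of H2-Eb1 and H2-Aa for class II and of H2-K1 and B2m for class I are shown because the classes diverged in the measurements. Each line holds the 200 bases before the RefSeq start of the gene, on its coding strand, in GRCm38.p6. The stretches are chr17:34305667-34305866 (plus strand) for H2-Eb1, chr17:34287824-34288023 (minus strand) for H2-Aa, chr17:34000348-34000547 (minus strand) for H2-K1 and chr2:122147487-122147686 (plus strand) for B2m. Capitals mark CCAAT on either strand in all 4 and ACTGATGATG in H2-Eb1. In the class I lines they also mark the κB-type pattern (GGG, any 5 bases, CC), in H2-K1 the reverse complement of GAANNGAAA, and in B2m the longer interferon-type pattern (GAAA, any 2 bases, GAAA). The κB-type pattern is also present in the H2-Aa and H2-Eb1 lines but is not marked there.
H2-Eb1: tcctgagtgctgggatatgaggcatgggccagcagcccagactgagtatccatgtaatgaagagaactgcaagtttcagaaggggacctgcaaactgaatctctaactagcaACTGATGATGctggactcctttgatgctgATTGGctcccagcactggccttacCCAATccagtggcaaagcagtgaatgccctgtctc
H2-Aa: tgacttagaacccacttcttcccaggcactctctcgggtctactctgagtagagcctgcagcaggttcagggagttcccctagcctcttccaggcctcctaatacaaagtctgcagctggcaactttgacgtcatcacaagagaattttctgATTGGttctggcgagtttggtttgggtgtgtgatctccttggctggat
H2-K1: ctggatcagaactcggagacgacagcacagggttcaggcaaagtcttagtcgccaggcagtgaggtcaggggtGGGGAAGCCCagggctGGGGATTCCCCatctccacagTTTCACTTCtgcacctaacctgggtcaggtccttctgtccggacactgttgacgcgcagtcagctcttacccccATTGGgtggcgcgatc
B2m: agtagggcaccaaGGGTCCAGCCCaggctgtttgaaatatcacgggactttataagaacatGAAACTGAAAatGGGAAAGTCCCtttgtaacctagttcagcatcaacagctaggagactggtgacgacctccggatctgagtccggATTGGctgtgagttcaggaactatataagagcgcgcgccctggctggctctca

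Promoter windows of 300 bases, 250 before and 50 after the start, were at hand in the RefSeq table for 7 of the 10 genes, and both strands were searched. CCAAT, the letters of the Y box read by NF-Y, was present in 6 of the 7 windows, with H2-DMa as the exception, and in 37.4% of 32851 windows of all genes. ACTGATGATG, letters chosen after the H2-Eb1 promoter was read, was present in H2-Eb1 and H2-DMb1, 88 and 91 bases before the start, and in 0.274% of all windows. The κB-type pattern was present in all 3 class I windows (4 matches in H2-K1, 3 in H2-D1 and 4 in B2m, overlapping matches counted singly) and in H2-Aa, H2-Eb1 and H2-DMa, against 50.8% of all windows. Patterns of the interferon-stimulated element differed by gene. The longer one was found in B2m, 139 bases before the start (3.44% of all windows), and GAANNGAAA, chosen after the promoters were read, in H2-K1 and H2-D1 at 90 and 150 bases (7.52%). TTCNNNGAA, a pattern of STAT sites, was in 0 of the 7 windows and in 8.3% of all. A match is a run of letters only, and binding was not measured.

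After PBS alone, the 10 genes covered a wide range of levels. In PBS ears B2m was at 272 ± 47.9 RPKM and Cd74 at 245 ± 46.9 RPKM (SD, n = 3 mice in each group throughout), and these ranges overlapped. H2-D1 followed with 136 ± 15.2 RPKM. H2-K1 (84.5 ± 19.6 RPKM), H2-Eb1 (82.4 ± 19.1 RPKM), H2-Aa (74.7 ± 13 RPKM) and H2-Ab1 (66.9 ± 11.4 RPKM) came next and could not be ranked, since their ranges overlapped. H2-DMb1 (11.2 ± 1.16 RPKM) and H2-DMa (6.39 ± 0.869 RPKM) were lower than all chains, and Ciita was the lowest at 1.45 ± 0.28 RPKM. After IL-17A + IL-36γ, B2m (662 ± 56.5 RPKM) and H2-D1 (304 ± 14.5 RPKM) headed the order. Cd74 (177 ± 22 RPKM) and H2-K1 (174 ± 13.7 RPKM) then overlapped, and the class II chains lay at 60 ± 9.11 RPKM for H2-Aa, 57.4 ± 8.96 RPKM for H2-Eb1 and 46.1 ± 3.48 RPKM for H2-Ab1.

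Class I and class II genes took different courses across the treatments. The 3 class I genes rose 2.49- to 2.72-fold after IL-36γ and 2.06- to 2.44-fold with both cytokines. The class II chains and Cd74 had their highest means after IL-17A and their lowest in the combination, and after IL-36γ none of them passed the test against PBS. H2-DMa, H2-DMb1 and Ciita rose after IL-36γ, and none of these passed the test in the combination. The 3 comparisons with PBS share the PBS mice, so that they are not independent of each other. Unsorted ear tissue was measured, so that fewer cells of a type and less RNA per cell cannot be told apart.

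H2-Aa (ENSMUSG00000036594, chromosome 17, 34282744 to 34287823, GRCm38) encodes the α chain of the I-A molecule. It was at 233, 332 and 286 CPM in the PBS libraries and at 426, 412 and 363 CPM after IL-17A. After IL-36γ it was at 355, 287 and 306 CPM, and after the combination at 211, 268 and 205 CPM. Every IL-17A library exceeded every library of PBS and of the other treatments, while the combination and PBS overlapped. H2-Aa rose after IL-17A by a log2 value of 0.50 (SE 0.14, adjusted p = 0.0405). This rise was lost in 7 of 13 alternatives, among them those that left out PBS replicate 1 (0.38, adjusted p = 0.0516) or PBS replicate 3, and IL-17A replicate 1 or 2. In the combination the change from PBS was -0.32 (SE 0.14, adjusted p = 0.0788), and it passed with PBS replicate 1 left out (-0.44, adjusted p = 0.0129), with library-size scaling (-0.46, adjusted p = 0.0168) and with IL-17A + IL-36γ replicate 2 left out.

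H2-Ab1 (ENSMUSG00000073421, chromosome 17, 34257689 to 34269419) encodes the β chain that pairs with the product of H2-Aa. Its levels were 140, 197 and 178 CPM in PBS ears, 216, 231 and 197 CPM after IL-17A, 192, 162 and 172 CPM after IL-36γ, and 110, 128 and 117 CPM with both cytokines. The 3 libraries of the combination were below all others. H2-Ab1 fell in the combination against PBS, with a log2 fold change of -0.54 (SE 0.12, adjusted p = 0.00261), which is 0.69 times the PBS level. It passed in all 13 alternatives, with values from -0.68 to -0.42, and was the only class II gene to do so against PBS.

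H2-Eb1 (ENSMUSG00000060586, chromosome 17, 34305867 to 34316674) encodes the β chain of the I-E molecule, which in this strain has no α partner. It was at 119, 192 and 170 CPM in PBS ears, at 196, 219 and 190 CPM after IL-17A, at 192, 147 and 167 CPM after IL-36γ and at 96, 130 and 108 CPM with both cytokines. PBS replicate 1 lay within the range of the combination, and the other PBS libraries lay above it. H2-Eb1 fell in the combination by 0.52 on the log2 scale (SE 0.17, adjusted p = 0.025). The call was lost in 6 of 13 alternatives, including those without PBS replicate 2, PBS replicate 3, IL-17A + IL-36γ replicate 1 or IL-17A + IL-36γ replicate 3, over which the adjusted p-value reached 0.111.

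Cd74 (ENSMUSG00000024610, chromosome 18), the invariant chain, was at 323, 475 and 435 CPM in PBS ears and at 521, 535 and 477 CPM after IL-17A. It was at 461, 377 and 447 CPM after IL-36γ and at 265, 337 and 288 CPM with both cytokines. The order of groups was that of the chains it escorts. Cd74 fell in the combination against PBS (log2 fold change -0.47, SE 0.14, adjusted p = 0.0137), a call lost without PBS replicate 2, without PBS replicate 3 and without IL-17A + IL-36γ replicate 1, where the adjusted p-value was up to 0.0706. Summed over the 3 chains, class II CPM per Cd74 CPM lay between 1.44 and 1.61 in the 12 libraries.

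**Figure D1:**
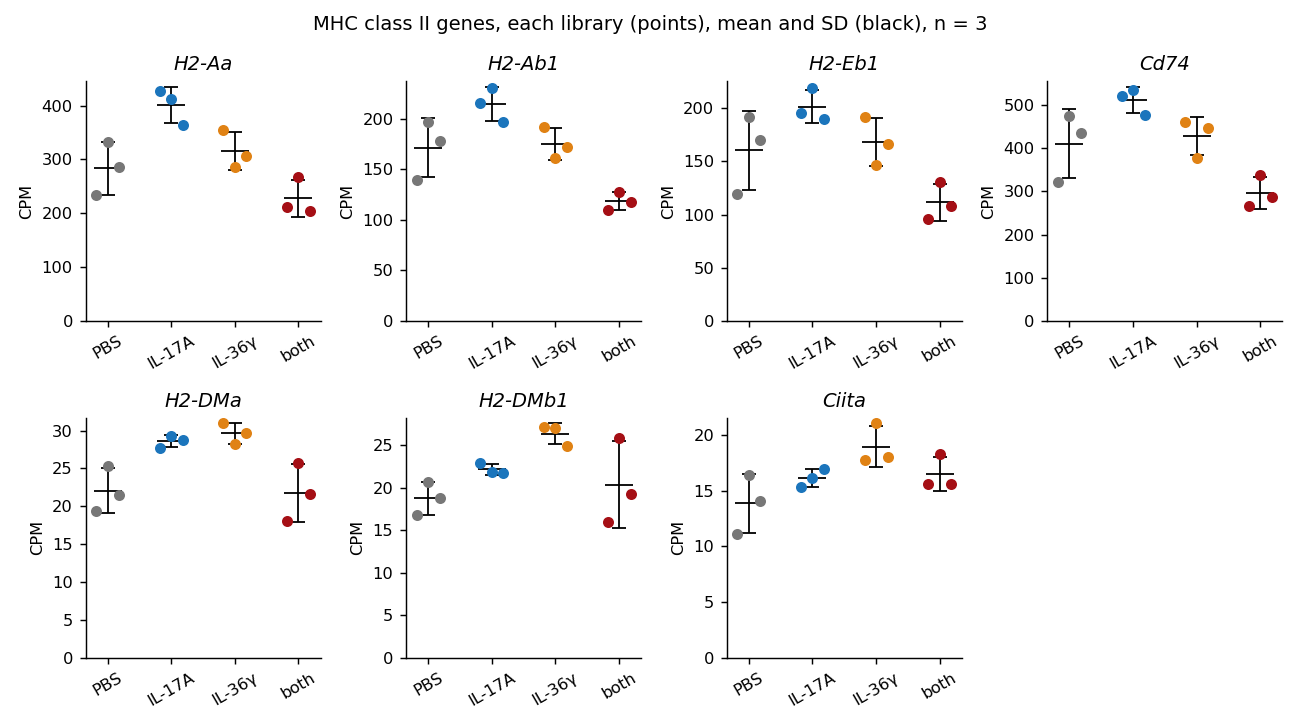
Levels of the 7 class II genes in CPM (linear axes from 0) in each of the 12 libraries, by group; points are mice, black bars the mean and SD of 3. The chains and Cd74 had their highest means after IL-17A and lowest after both cytokines, with H2-Ab1 at 110 to 128 CPM after both against 140 to 197 CPM in PBS ears.

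The remaining class II genes behaved otherwise. H2-DMa (ENSMUSG00000037649, chromosome 17, 34119541 to 34139101) encodes the α chain of the peptide exchange factor. It was at 19.4, 25.3 and 21.5 CPM in PBS ears, 27.7, 29.3 and 28.7 CPM after IL-17A, 31, 28.2 and 29.7 CPM after IL-36γ and 18, 25.7 and 21.7 CPM with both cytokines. Both single cytokines gave libraries above all PBS libraries, and the combination overlapped PBS. H2-DMa rose after IL-36γ by 0.43 on the log2 scale (SE 0.12, adjusted p = 0.0198). Its change after IL-17A was 0.38 (adjusted p = 0.0618), which passed in DESeq2 (0.37, adjusted p = 0.0217), and after the combination -0.02 (95% confidence interval -0.28 to 0.25, adjusted p = 0.932).

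H2-DMb1 (ENSMUSG00000079547, chromosome 17, 34153072 to 34160230) encodes the β chain of H2-DM, and 15.7% of its 76-base windows also occur in H2-DMb2, so that its counts could be split between them. It was at 16.8, 20.7 and 18.8 CPM in PBS ears, 22.9, 21.8 and 21.8 CPM after IL-17A, 27.2, 27 and 25 CPM after IL-36γ and 15.9, 25.9 and 19.2 CPM with both cytokines. The spread within the combination was the widest of the 4 groups. H2-DMb1 rose after IL-36γ (log2 fold change 0.49, SE 0.14, adjusted p = 0.0206). In the combination the value was 0.12 (95% confidence interval -0.19 to 0.42), and it turned to -0.03 with library-size scaling and to -0.11 without IL-17A + IL-36γ replicate 2.

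Ciita (ENSMUSG00000022504, chromosome 16, 10480059 to 10528418), the master regulator of the class, was at 11.1, 16.4 and 14.1 CPM in PBS ears and at 15.4, 16.1 and 17 CPM after IL-17A. It was at 17.7, 21 and 18 CPM after IL-36γ and at 15.6, 18.3 and 15.6 CPM with both cytokines. All IL-36γ libraries exceeded all PBS libraries, and the combination overlapped PBS through PBS replicate 2. Ciita rose after IL-36γ by 0.45 on the log2 scale (SE 0.13, adjusted p = 0.0218), and its change in the combination was 0.25 (SE 0.13, adjusted p = 0.135), which passed without PBS replicate 2 (0.40, adjusted p = 0.0333). The rises of H2-DMa, H2-DMb1 and Ciita after IL-36γ were all lost with library-size scaling and without PBS replicate 3. The adjusted p-values of the 3 genes were highest with library-size scaling among all alternatives, at 0.125, 0.093 and 0.132. That of H2-DMa was also lost without IL-36γ replicate 1, that of H2-DMb1 without IL-36γ replicate 1 or 2, and that of Ciita without IL-36γ replicate 2 and with only the 2 groups in the fit. The gene bodies of Ciita and Dexi, and of H2-DMa and Brd2, overlap on opposite strands (25888 and 3094 bases). Dexi was at 18.1 CPM and Brd2 at 155 CPM in PBS ears, and whether the counting used the strand is not given in the sources used here.

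The sum of the 3 class II chains was compared with Ciita in each library, a ratio chosen after the values were seen and given without a test. The chains held 43.9 to 45.1 CPM per CPM of Ciita in the PBS libraries and 44.2 to 54.5 after IL-17A. After IL-36γ the ratio was 28.3 to 41.7, and after the combination 26.7 to 28.8. The groups with IL-36γ lay below PBS in all 6 libraries.

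Class I genes rose together. H2-K1 (ENSMUSG00000061232, chromosome 17, 33996017 to 34000347) encodes the K heavy chain. It was at 182, 287 and 276 CPM in PBS ears and at 342, 331 and 301 CPM after IL-17A. It reached 661, 615 and 580 CPM after IL-36γ and 465, 539 and 530 CPM with both cytokines. No library of a group with IL-36γ overlapped one without it. H2-K1 rose by a log2 value of 1.32 after IL-36γ (SE 0.14, adjusted p = 7.56e-05) and of 1.04 after the combination (SE 0.14, adjusted p = 0.000134). Without PBS replicate 1 these values were 1.14 (adjusted p = 3.26e-06) and 0.87 (adjusted p = 1.28e-05), the latter under the fold threshold of the study. The combination value was also under it with library-size scaling (0.89) and without IL-17A + IL-36γ replicate 2 (0.99).

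H2-D1 (ENSMUSG00000073411, chromosome 17, 35262730 to 35267499) encodes the D heavy chain. It was at 311, 390 and 350 CPM in PBS ears, 547, 479 and 456 CPM after IL-17A, 989, 905 and 837 CPM after IL-36γ and 742, 797 and 814 CPM with both cytokines. All 4 groups were separate, in the order PBS, IL-17A, combination and IL-36γ. Against PBS it rose after each treatment, by log2 values of 0.50 (SE 0.10, adjusted p = 0.0178), 1.38 (SE 0.10, adjusted p = 8.43e-06) and 1.16 (SE 0.10, adjusted p = 8.4e-06). For IL-17A the call failed when PBS replicate 3 or IL-17A replicate 1 was left out or when the fit held these 2 groups alone, with an adjusted p-value of 0.105 at most.

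B2m (ENSMUSG00000060802, chromosome 2, 122147686 to 122153083) encodes β2-microglobulin, the light chain of every class I molecule. It was at 188, 269 and 244 CPM in PBS ears, 383, 344 and 301 CPM after IL-17A, 643, 631 and 635 CPM after IL-36γ and 520, 618 and 571 CPM with both cytokines. Its groups were separate in the same order as those of both heavy chains. B2m rose by 0.55 with IL-17A (SE 0.12, adjusted p = 0.0217), by 1.45 with IL-36γ (SE 0.12, adjusted p = 2.02e-05) and with both by 1.28 (SE 0.12, adjusted p = 1.63e-05) on the log2 scale. The rise after IL-17A was lost in 5 of 13 alternatives, among them without PBS replicate 3, IL-17A replicate 1 or IL-17A replicate 2, with an adjusted p-value of up to 0.127. Patl2, whose gene body covers B2m on the other strand, was at 0.0782 CPM in PBS ears. Heavy chain CPM per B2m CPM lay between 2.16 and 2.62 in all libraries.

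**Figure D2:**
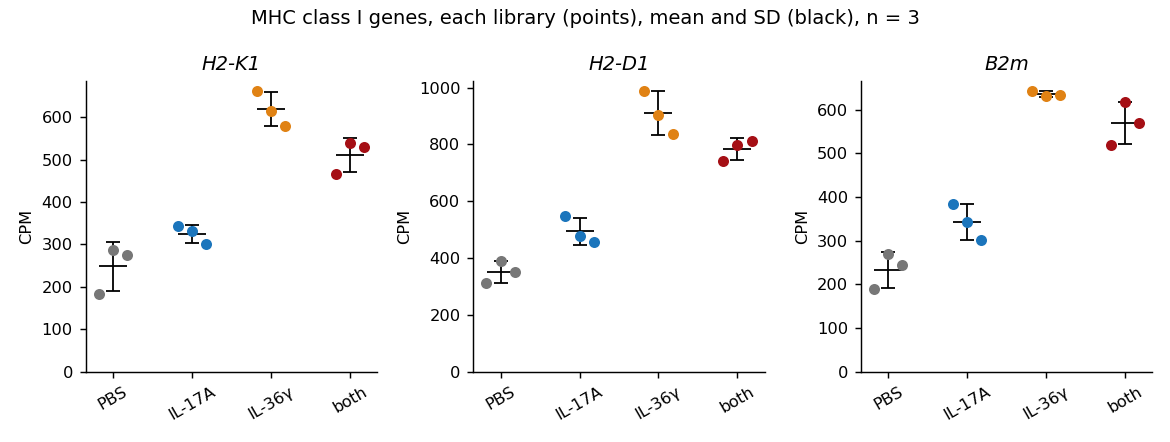
Levels of the 3 class I genes in CPM (linear axes from 0) in each of the 12 libraries, by group; points are mice, black bars the mean and SD of 3. All 6 libraries that received IL-36γ lie above the 6 that did not, with B2m at 520 to 643 CPM against 188 to 383 CPM.

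Read against all genes tested, the changes of class I were large, while falls such as those of class II were common in the combination. After IL-17A 3 of the 10 genes rose (H2-Aa, H2-D1 and B2m) and 0 fell, where 7.36% of all genes rose and 3.52% fell. The threshold of the study was passed by 0 of the 10 in edgeR and in DESeq2, and by 1.92% of all genes in edgeR. An unadjusted edgeR p-value below 0.05 was found for 7 of the 10 and for 5989 of the 19408 genes tested. By the adjusted p-value of DESeq2 H2-Ab1, H2-DMa and H2-K1 rose as well, where 11.9% of all genes with such a p-value did and 6.87% fell. After IL-36γ 6 rose and 0 fell, where 17.3% of all genes rose and 11.2% fell. The 3 class I genes rose past the threshold of the study, as 5.01% of all genes did. After the combination the 3 class I genes rose and H2-Ab1, H2-Eb1 and Cd74 fell, where 23.7% of all genes rose and 20.5% fell. The 3 class I genes again rose past the threshold of the study, as 7.32% of all genes did. Libraries were separate from PBS, and higher, for 7 of the 10 genes with IL-17A and for 6 with IL-36γ, where 19.6% and 22.4% of all genes were. With both cytokines 3 were higher and H2-Ab1 lower, where 27% and 25.6% were. The median log2 fold change of the 7 class II genes was 0.32, 0.15 and -0.32 in the 3 comparisons, that of the 3 class I genes was 0.50, 1.38 and 1.16, and that of all genes was 0.04, -0.02 and -0.03.

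**Figure D3:**
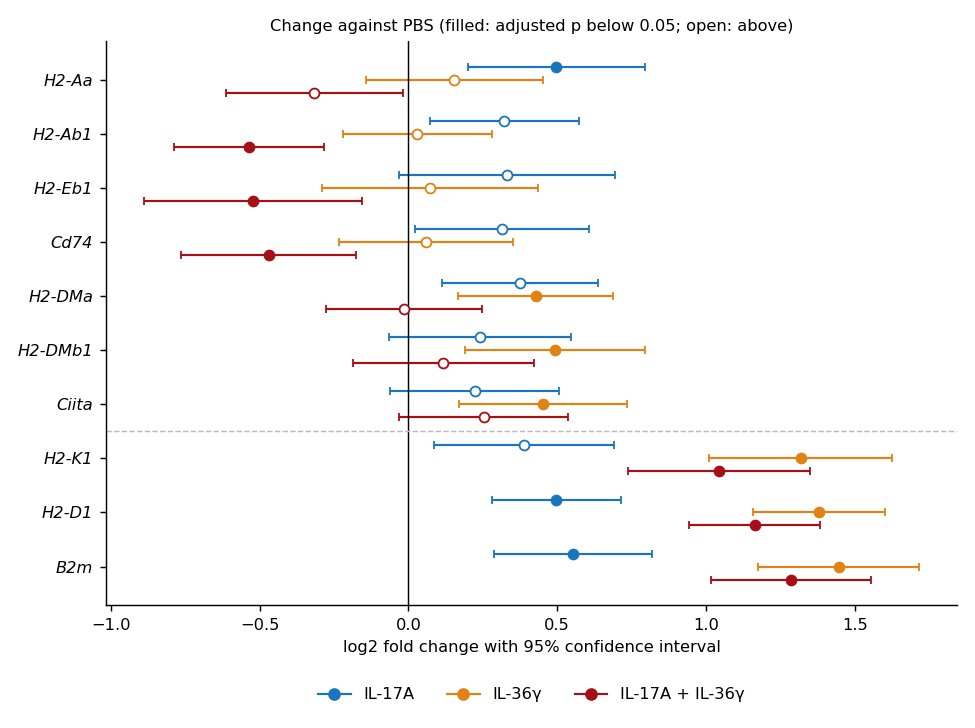
Log2 fold change against PBS with its 95% confidence interval for the 10 genes, class II above and class I below the dashed line; blue is IL-17A, orange IL-36γ and red both, and filled points have an adjusted p-value below 0.05. The class I genes lie at 1.04 to 1.45 in the groups with IL-36γ, while the chains and Cd74 lie left of 0 in the combination, at -0.54 to -0.32.

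The effect of adding IL-36γ to IL-17A was read from the combination against IL-17A alone, which uses no PBS library. The class II genes that passed the test fell and the class I genes rose. H2-Aa, H2-Ab1, H2-Eb1, Cd74 and H2-DMa fell and H2-K1, H2-D1 and B2m rose, 5 and 3 of the 10 genes, where 17.2% of all genes fell and 15% rose. H2-Ab1 fell by 0.86 (SE 0.12, adjusted p = 0.000346) on the log2 scale, H2-Eb1 by 0.85 (SE 0.17, adjusted p = 0.00315), H2-Aa by 0.81 (SE 0.14, adjusted p = 0.00122) and Cd74 by 0.79 (SE 0.14, adjusted p = 0.00131). These are 0.55 to 0.58 times the level after IL-17A, and libraries were separate for all 5 genes that fell and all 3 that rose, as they were for 25.4% (lower) and 23% (higher) of all genes. The fall of H2-DMa was smaller (-0.39, adjusted p = 0.0272) and was lost with library-size scaling and without any 1 of the 3 IL-17A libraries or IL-17A + IL-36γ replicate 1 or 3, with an adjusted p-value of up to 0.106. The rises were 0.66 for H2-K1 (adjusted p = 0.00423), 0.67 for H2-D1 (adjusted p = 0.00061) and 0.73 for B2m (adjusted p = 0.00107). All 7 of these calls other than H2-DMa passed in all 13 alternatives. H2-DMb1 (-0.12, 95% confidence interval -0.43 to 0.18) and Ciita (0.03, 95% confidence interval -0.25 to 0.31) did not pass. By edgeR and by DESeq2, 0 of the 10 genes passed the threshold of the study, which 8.51% of all genes passed in edgeR. An unadjusted edgeR p-value below 0.05 was found for 8 of the 10 and for 8344 of the 19408 genes tested.

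The effect of adding IL-17A to IL-36γ was read from the combination against IL-36γ alone. Of the 10 genes 0 passed in edgeR, where 0.0309% of all genes did. An unadjusted edgeR p-value below 0.05 was found for 6 of the 10 and for 2857 of the 19408 genes tested. DESeq2 called 5 of the 10 (H2-Aa, H2-Ab1, H2-Eb1, Cd74 and H2-DMa), all lower. Of the genes with an adjusted p-value in DESeq2, 3.03% were called lower and 1.06% higher. The 3 libraries of the combination lay below the 3 of IL-36γ for 8 of the 10 genes, all but H2-DMb1 and Ciita, where 11.3% of all genes did, and 0 were separate and higher (9.33% of all genes). The threshold of the study was passed by 0.0103% of all genes in edgeR. The differences of the chains and Cd74 were -0.47 for H2-Aa (95% confidence interval -0.77 to -0.17, adjusted p = 0.169), -0.57 for H2-Ab1 (-0.82 to -0.31, adjusted p = 0.0903), -0.59 for H2-Eb1 (-0.96 to -0.23, adjusted p = 0.164) and -0.53 for Cd74 (-0.82 to -0.24, adjusted p = 0.121). H2-Ab1 passed without IL-36γ replicate 2 and with no filter on low counts. Those of the class I genes were smaller, at -0.27 for H2-K1 (-0.58 to 0.03), -0.22 for H2-D1 (-0.43 to 0.00) and -0.16 for B2m (-0.42 to 0.10).

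Between the single cytokines, H2-K1 (0.93, adjusted p = 0.00371), H2-D1 (0.88, adjusted p = 0.00116) and B2m (0.89, adjusted p = 0.00272) were higher after IL-36γ than after IL-17A, 3 of the 10 genes, where 4.13% of all genes were higher and 3.53% lower. Libraries were separate for 5 genes that were higher (the class I genes, H2-DMb1 and Ciita) and for 3 that were lower (H2-Aa, H2-Ab1 and Cd74), against 15.6% and 16.1% of all genes. The class II genes did not pass, and H2-Ab1 was at -0.29 (95% confidence interval -0.54 to -0.04, adjusted p = 0.137). Of the 10 genes 0 passed the threshold of the study in edgeR or DESeq2 (1.42% of all genes did in edgeR). An unadjusted edgeR p-value below 0.05 was found for 5 of the 10 and for 4786 of the 19408 genes tested.

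Whether the cytokines acted on each gene independently on the log2 scale was tested by the interaction, which takes the IL-17A effect on top of IL-36γ and subtracts the IL-17A effect over PBS. It was below 0 for all 10 genes and passed for H2-Aa (-0.97, SE 0.19, adjusted p = 0.0478), H2-Ab1 (-0.89, SE 0.16, adjusted p = 0.042), H2-DMa (-0.82, SE 0.17, adjusted p = 0.0494) and H2-D1 (-0.71, SE 0.14, adjusted p = 0.0475), 4 of the 10, where 0.567% of all genes passed below 0 and 0.206% above it. The median of all genes was -0.07. The other genes lay between -0.92 (H2-Eb1, adjusted p = 0.0704) and -0.42 (Ciita, adjusted p = 0.204). These 4 calls sat just inside the threshold. They were lost in 11 (H2-Aa), 9 (H2-Ab1), 13 (H2-DMa) and 11 (H2-D1) of 18 alternatives, among them library-size scaling and the omission of PBS replicate 3, IL-17A replicate 1 or 2, IL-36γ replicate 1 or 3, or any library of the combination. Without PBS replicate 2 only the call of H2-Ab1 held, whereas 8 of the 10 genes passed without PBS replicate 1, where 5.85% of all genes passed below 0 and 2.99% above it. With DESeq2 9 of the 10 passed, and 5.94% and 3.49% of all genes with an adjusted p-value there.

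**Figure D4:**
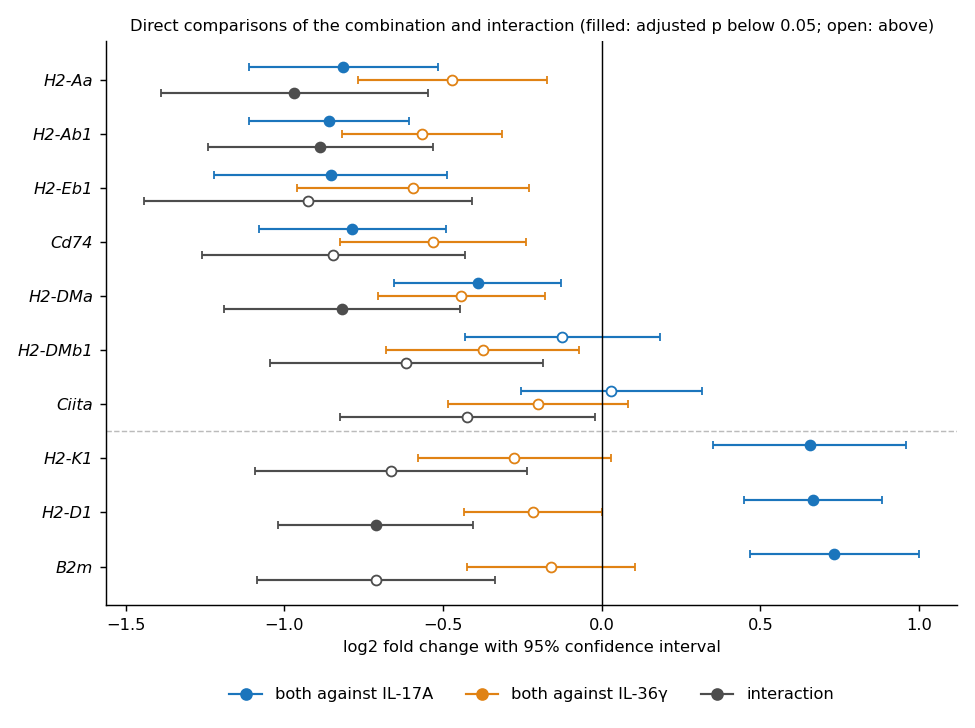
Log2 fold change with its 95% confidence interval of the combination against IL-17A (blue) and against IL-36γ (orange), and the interaction (grey), for the 10 genes; filled points have an adjusted p-value below 0.05. Against IL-17A the class II chains and Cd74 lie at -0.86 to -0.79 and the class I genes at 0.66 to 0.73, and all 10 interactions lie left of 0.

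Genes that serve class I presentation rose along with the heavy chains. Of 14 such genes 12 rose after IL-36γ and 12 after the combination, none fell, and the median log2 fold change was 0.70 and 0.88. After IL-17A 2 rose (median 0.34). Of all genes tested, 17.3% rose after IL-36γ, 23.7% after the combination and 7.36% after IL-17A. The immunoproteasome subunits Psmb8 (1.73 after IL-36γ and 1.92 after the combination), Psmb9 (1.56 and 1.71) and Psmb10 (1.15 and 1.42) and the peptide transporter Tap1 (1.18 and 1.22) passed the threshold of the study in both groups. The proteasome activator Psme2 (1.12) and tapasin, Tapbp (1.01), did so in the combination, and their values after IL-36γ were 0.91 and 0.92. Nlrc5, the class I counterpart of Ciita, was at 34, 64.7 and 61 CPM in PBS ears and at 72.9, 67.5 and 79.9 CPM after IL-36γ, with a log2 fold change of 0.46 (adjusted p = 0.17) and of 0.30 (adjusted p = 0.33) in the combination.

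Further class I heavy chains were mostly higher too. Of 16 tested, 11 rose and 1 fell after IL-36γ (median 1.10), and 10 rose and 2 fell after the combination (median 0.87). Over all genes, 17.3% rose and 11.2% fell after IL-36γ, and 23.7% rose and 20.5% fell after the combination. H2-T24 rose by 2.32 and 2.63, H2-T10 by 1.60 and 1.40 on the log2 scale, and H2-M3, which presents formylated peptides, by 1.22 after IL-36γ. H2-Q10 (2.31 and 3.21), H2-Q7 (1.83 and 1.42), H2-Q4 (1.46 and 1.15) and H2-Q5 (1.41 and 1.07) rose as well. H2-Q6 rose after IL-36γ (1.40) and was at 0.69 in the combination (adjusted p = 0.22). The Q genes share 6.67% to 20.9% of their 76-base windows with other genes, and H2-T10 shares 15.5%, so that reads may be split among copies. For H2-K1 and H2-D1 the share was 2.96% and 5.33%. H2-M5 fell (-2.28 and -4.95), and H2-M2 fell in the combination (-2.39, from 4.60 to 9.63 CPM in PBS ears to 0.914 to 1.91 CPM).

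Of 16 class II companions tested, 7 rose after IL-36γ (median 0.27) and 7 rose and 1 fell in the combination (median 0.18). Shares over all genes were 17.3% higher after IL-36γ, and 23.7% higher and 20.5% lower in the combination. Among the proteases that prepare peptides and trim the invariant chain, Ctss rose by 1.29 and 1.33, Lgmn by 1.34 and 1.44 and Ctsb by 0.73 and 0.79, while Ctsl rose in the combination (0.50) and was at 0.30 after IL-36γ (adjusted p = 0.12). The reductase Ifi30 rose by 0.99 and 1.16. Marchf1, a ligase that removes class II from the surface, rose by 0.70 (adjusted p = 0.0037) and 0.96 (adjusted p = 0.00021). Of the factors that recruit CIITA to the promoter, Nfyc rose by 0.21 and 0.25, Rfxap rose after IL-36γ (0.36) and was at 0.10 in the combination, and Rfx5, Rfxank, Nfya, Nfyb and Creb1 did not pass. H2-DMb2 fell in the combination, from 3.21, 4.39 and 3.46 CPM in PBS ears to 2.07, 2.27 and 2.07 CPM (log2 fold change -0.79, adjusted p = 0.0026). The H2-DO genes were low, with 0.78 to 1.45 CPM of H2-Ob, and H2-Oa was under the filter.

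Interferon-γ itself was barely read. Ifng had 0 counts in the 3 PBS libraries, 1, 0 and 0 after IL-17A, 0, 3 and 0 after IL-36γ and 5, 1 and 0 after the combination, too few to test. Of 13 genes of its axis that were tested, 7 rose after IL-36γ (median 0.78) and 9 after the combination (median 1.09), and 2 after IL-17A. Among all genes 17.3% rose after IL-36γ, 23.7% after the combination and 7.36% after IL-17A. Irf1 (0.78 and 1.09), Irf8 (1.46 and 1.62), Gbp2 (1.90 and 2.47), Gbp3 (1.66 and 1.98) and Gbp5 (1.67 and 2.12) rose in both groups. Cxcl9 rose in the combination (3.50, adjusted p = 0.011), where its libraries spread from 1.6 to 16.7 CPM, and Cxcl10 rose there too (3.05, adjusted p = 0.0087). Of 7 costimulatory and coinhibitory genes, Cd80 (1.07 and 1.36), Cd40 (1.06 and 1.31) and the coinhibitory Cd274 (0.81 and 1.12) rose after IL-36γ and after the combination.

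**Figure D5:**
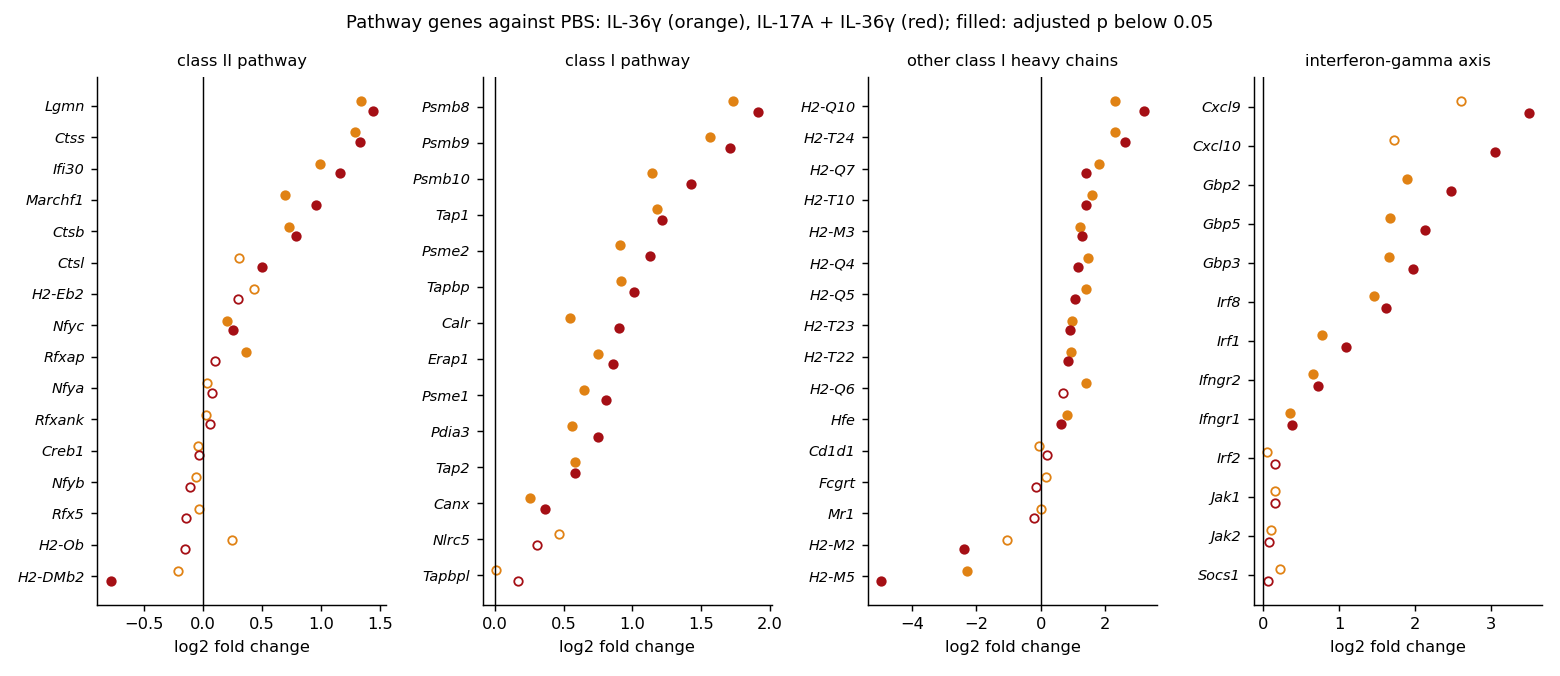
Log2 fold change against PBS of the tested genes of 4 lists, after IL-36γ (orange) and after both cytokines (red), sorted by the latter; filled points have an adjusted p-value below 0.05. In the class I list 12 of 14 genes are filled in each group, and in the class II list H2-DMb2 is the lone filled point left of 0.

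Markers of cells that carry class II moved between the groups as well, and their part in the results above was not tested. Langerhans cells of the epidermis are rich in class II. Of 5 of their markers 3 fell after IL-36γ and the same number after the combination, Cd207 (langerin) from 14.4 to 24.1 CPM in PBS ears to 2.47 to 6.58 CPM (log2 fold change -2.05, adjusted p = 0.0013) and 1.43 to 2.78 CPM (-3.28, adjusted p = 6.4e-05). Ltc4s (-1.54 and -2.21) and Mfge8 (-0.44 and -0.96) also fell, while Epcam and Tbc1d4, the rest of the list, did not fall in either group. Of all genes, 11.2% fell after IL-36γ and 20.5% after the combination. Cd207 was at 19.6 to 20.4 CPM after IL-17A. The summed level of the list was 268 to 276 CPM in PBS ears, 279 to 296 after IL-17A, 214 to 265 after IL-36γ and 181 to 221 CPM with both cytokines. Most of this sum came from genes other than Cd207, which was at 14.4 to 24.1 CPM in PBS ears.

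Among 10 markers of dendritic cells, 3 rose and 0 fell after IL-36γ (median 0.44), with Batf3 at 1.66 and Ccr7 at 1.70. For comparison with the marker lists, 7.36% of all genes rose after IL-17A. After IL-36γ 17.3% rose and 11.2% fell, and in the combination 23.7% rose and 20.5% fell. Mgl2 (-2.43, adjusted p = 0.00089) and Zbtb46 (-0.70, adjusted p = 0.002) fell in the combination while Batf3 (1.03) and Ccr7 (1.49) rose. The summed level of the 10 markers was 66.1 to 109 CPM in PBS ears, 90 to 99.8 after IL-17A, 70.6 to 92.2 after IL-36γ and 43 to 59.8 CPM with both cytokines, the lowest of the groups. Such a sum weights each gene by its level and need not follow the list. After IL-36γ it overlapped PBS although 3 of the 10 markers rose and 0 fell. The summed levels of macrophage and of monocyte markers were above those of PBS ears after every treatment. Of 9 macrophage genes 7 rose with IL-17A, 8 with IL-36γ and 7 with both cytokines, where Mertk fell (-0.27), and their summed level in PBS, IL-17A, IL-36γ and combination ears was 650 to 747, 944 to 1325, 1403 to 1618 and 1251 to 1424 CPM. The 4 monocyte genes rose after IL-36γ and after the combination, among them Ly6c2 (4.49 and 4.88) and Ccr2 (2.11 in the combination), with sums in the same order of groups of 40.4 to 72, 105 to 150, 209 to 300 and 244 to 322 CPM. B cell markers were low. Pax5 was at 0 counts in all PBS and all combination libraries and Ms4a1 at 3 counts or fewer in these, and 1 of 4 markers, Cd79b, passed the filter. It rose by 1.37 after IL-17A, by 3.02 after IL-36γ and by 2.81 in the combination. The 4 markers summed to 0.396 to 0.546 CPM in PBS ears, 1.064 to 1.503 after IL-17A, 2.695 to 3.838 after IL-36γ and 2.14 to 3.39 CPM with both cytokines. Of the coreceptors that bind the 2 classes, Cd4 was at 4.37 to 6.03 CPM in PBS ears and 10.9 to 12.2 CPM after IL-36γ (1.13, adjusted p = 0.00011), and rose by 0.63 in the combination (adjusted p = 0.0021). Cd8a had 3, 0 and 0 counts in PBS ears, 4, 18 and 4 after IL-36γ and 23, 21 and 9 with both cytokines. Neutrophil markers summed to 7.49 to 12.1 CPM in PBS ears and 89.6 to 182 CPM with both cytokines, and T cell markers to 29.7 to 32.9 and 25.1 to 26.6 CPM. Of the 7 T cell markers 3 rose and 2 fell in the combination (median 0.21), where 23.7% of all genes rose and 20.5% fell. These included Trac (2.18) and Trdc (-1.17), constant regions of the αβ and γδ receptors.

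The genes whose levels ran closest to each class over the 12 libraries are given as a description. Pearson's r was taken with the mean standardised log2 CPM of H2-Aa, H2-Ab1, H2-Eb1 and Cd74, or of H2-K1, H2-D1 and B2m, and the libraries share treatments, so that no test applies. Closest to class II were Nek7 (0.96), Krt19 (0.95), Cadps2 (0.95) and Sirt1 (0.94), whose means were highest after IL-17A and lowest after the combination. Krt19 and Cadps2 were low, with group means of 0.615 to 1.90 and of 0.516 to 1.09 CPM. The group means of Nek7 spanned 118 to 151 CPM and those of Sirt1 34.4 to 40.0 CPM. Closest to class I were Adgre1 (0.99), the gene of the macrophage antigen F4/80, Rassf4 (0.99), H2-T10 (0.98), Pip4k2a (0.98) and Spn (0.98). Adgre1 was at 35.5 ± 5.07 CPM in PBS ears, 59.2 ± 9.34 after IL-17A, 149 ± 9.71 after IL-36γ and 125 ± 9.34 CPM with both cytokines.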

How the data were processed

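Total RNA of mouse ears was read with a stranded kit after rRNA removal. Per the study's methods the authors aligned reads to mm10 with STAR 2.5.2b and counted them with featureCounts of Subread 1.5.1. The deposited counts are raw whole numbers per Ensembl gene, 1 column per library (25293468 to 34759293 in all). Annotation release, strand setting and treatment of multi-mapping reads are not given in the sources used here. Tables of the authors' own comparisons (DESeq2 1.30.0 log2 fold changes, p-values and adjusted p-values) served only to pair symbols with identifiers (47020 of 50684). Positions and exon lengths came from GENCODE vM21 (50374 matched).

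Groups were taken from the sample labels. Counts were analysed in R 4.3.3 with edgeR 4.0.16 (filterByExpr, minimum count 10, TMM, quasi-likelihood test, 19408 genes, 12 libraries in 1 fit), limma 3.58.1 and DESeq2 1.42.0. The common biological coefficient of variation was 14.2%. In simulated data with 200 of 19136 genes changed by a log2 value of 2, 193 (96.5%) were called in the combination against PBS, with 3 unchanged genes, and 186 (93%) in the interaction, with 6. That change was larger than any change or interaction of the 10 genes (1.45 at most in size). The rates therefore do not apply to changes as small as theirs. Counts of replicate libraries differed by more than sampling noise, so that none was a duplicate. Nothing in the sources pairs mice of different groups, and the p-values measure the spread between the sampled mice. A gene with 3 counts or fewer in every library of a group gave a bound, computed against 3 counts, in place of a fold change. All values carry counting error, which is part of the spread tested.

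The 10 genes, the lists and the motifs were chosen with earlier results of these data known. Named besides the members are the list genes past the study's threshold against PBS (at most 6 per list and comparison) and the 5 genes nearest to each class by Pearson's r, of which 1 for class II and 2 genes of the lists are not reported here. Nlrc5, H2-Q5, H2-Q6, H2-M3, Irf1, Ifng, Marchf1, the subunits of NF-Y and RFX, Creb1, H2-DMb2, H2-Ob, H2-Oa, Ctsb, Ctsl, Mfge8, Zbtb46, Mertk and the B cell markers were named after their values were seen. Alternatives were DESeq2 size factors, library size only, no filter, at least 10 counts in every library, the 2 groups alone, a replicate block, each library left out, no fold threshold and the DESeq2 likelihood ratio test.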

Additional observations from a re-analysis of the deposited data

Results flagged for a closer look

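For 4 genes the effect of IL-17A on top of IL-36γ differed from its effect over PBS by the interaction test of edgeR. The difference on the log2 scale was -0.97 for H2-Aa, -0.89 for H2-Ab1, -0.82 for H2-DMa and -0.71 for H2-D1, with adjusted p-values of 0.0478, 0.042, 0.0494 and 0.0475. Over all genes 0.567% passed below 0, and the 4 calls were lost in 11, 9, 13 and 11 of 18 alternatives. In H2-Aa, IL-17A gave a log2 change of 0.50 against PBS and of -0.47 on top of IL-36γ. In H2-D1 the corresponding values were 0.50 and -0.22.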

How the results depend on the processing

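Leaving out 1 library at a time gave 0 members past the study's threshold for IL-17A, 3 for IL-36γ and 2 to 3 for the combination against PBS, 0 in the 3 direct comparisons, and 0 to 8 in the interaction (4 in all libraries). The adjusted p-value alone gave 3, 6 and 6 against PBS, 8 for the combination against IL-17A and 3 for IL-36γ against IL-17A. The interaction count was 1 with DESeq2 size factors, 0 with library size only and 9 with the DESeq2 test, where the counts over all genes were 94, 1 and 1780, against 150.

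Directions turned in 17 of 960 values, all of small changes that did not pass. For IL-36γ against PBS, library size only gave -0.0044 (H2-Aa), -0.129 (H2-Ab1), -0.0895 (H2-Eb1) and -0.0975 (Cd74). With libraries left out in turn, the values ranged from -0.0969 to 0.137 for H2-Ab1, -0.0995 to 0.218 for H2-Eb1 and -0.0844 to 0.174 for Cd74, below 0 without PBS replicate 1 or IL-36γ replicate 1. For the combination against PBS, H2-DMa ranged from -0.163 to 0.106 (above 0 without PBS replicate 2 or IL-17A + IL-36γ replicate 1 or 3). H2-DMb1 was at -0.0269 with library size only and ranged from -0.107 (without IL-17A + IL-36γ replicate 2) to 0.268. For the combination against IL-17A, H2-DMb1 ranged from -0.314 to 0.0244 (without IL-17A + IL-36γ replicate 1) and Ciita from -0.0268 (without replicate 2) to 0.0852. The cause was not tested. In all, 830 values kept direction and side of the threshold, 85 lost it and 28 gained it.

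Whether replicate numbers pair mice is not stated in the sources and was not settled here. Same-numbered pairs had correlations of -0.199 to 0.352, with 9 of 18 above 0.1. Pairs with different numbers ranged from -0.503 to 0.364, and 8 of 12 libraries correlated best with their own number. With the replicate block, 0, 3 and 3 members passed the study's threshold against PBS, 0 in each direct comparison, and 6 in the interaction (Cd74 and B2m besides the 4), where the count over all genes went from 150 to 978. By the adjusted p-value alone the block added H2-DMa after IL-17A (0.38, adjusted p = 0.0361) and changed no further call of the 10 genes.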
